A study of Rattus norvegicus with 16 samples.

Results

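Hippocampal gene expression was compared between injured rats treated with JM6 and injured rats treated with 17β-estradiol (E2), on 5 of the 16 arrays analysed: 3 TBI+JM6 arrays and 2 TBI+E2 arrays, each from 1 rat. All 5 rats were adult male Sprague-Dawley rats with a severe parasagittal fluid-percussion traumatic brain injury (TBI), and the hippocampus was taken 24 h after injury. JM6 was given at 400 mg/kg by oral gavage, and E2, which the sample labels call E33, at 33 µg/kg, subcutaneously by the labels and intraperitoneally by the methods of the study. The methods state 3 rats per group, and 2 E2 rats were analysed here. The comparison asks where the hippocampal transcripts of the 2 drug-treated groups differed from each other, with no untreated rat on either side. The other 11 arrays (3 Naïve, 2 Sham, 3 TBI and 3 TBI+PMI-006) entered the estimate of the spread between rats of a group and the filter that chose the probes tested, and values of TBI+PMI-006 are given beside some results.

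JM6 was described as a prodrug of an inhibitor of kynurenine 3-monooxygenase (Kmo). In the kynurenine pathway, indoleamine and tryptophan dioxygenases open tryptophan, and kynurenine is then either transaminated to kynurenic acid, which blocks glutamate receptors, or hydroxylated by Kmo toward 3-hydroxykynurenine and quinolinic acid, which excites NMDA receptors. Kmo in the brain lies mainly in microglia and the transaminases mainly in astrocytes. E2 acts through the nuclear estrogen receptors Esr1 and Esr2, which bind estrogen response elements in DNA, and through the membrane receptor Gper1, and it is known in the hippocampus for effects on synapses and on survival after injury.

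The depth of the arrays, as the number of probes well above background, was 22023 to 24984 on the TBI+JM6 arrays and 22892 to 24090 on the TBI+E2 arrays. Of 16 genes tested that mark the CA fields and 12 that mark the dentate gyrus, bright members such as Mpped1 (1.74, 1.96 and 1.87 on the JM6 arrays, 1.85 and 2.0 on the E2 arrays) and Marcksl1 (2.68, 3.0 and 2.87, and 2.93 and 2.78) were measured on all 5 arrays. Levels here and below are log2 values of the signal on a scale where 0 is the 75th percentile of that array's own above-background probes, and levels of different probes are not set against each other. JM6 2, JM6 3 and both E2 arrays lay on 1 slide, while JM6 1 lay on another slide with the 3 TBI+PMI-006 arrays, and all 8 were scanned in 1 session. The 8 Naïve, Sham and TBI arrays were scanned in another session and had fewer probes well above background, 16282 to 18245.

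Few transcripts differed. With limma, 4 of 22824 probes (0.0175%) passed an adjusted p under 0.05, and all 4 were higher in TBI+E2. All 4 passed the filter that chose the probes only because both E2 arrays were above background on them. Their direction was therefore tied to the filter. With a filter for probes above background on all 5 arrays, 0 were called. At an unadjusted p under 0.05, limma gave 642 probes (2.81%), of which 60 (0.263%) were higher in TBI+JM6 and 582 (2.55%) in TBI+E2. The JM6 arrays and the E2 arrays did not overlap on 3884 probes (17%), with TBI+JM6 higher on 669 (2.93%) and TBI+E2 higher on 3215 (14.1%). The middle of all differences (TBI+JM6 minus TBI+E2) lay at -0.08 on the log2 scale, and the 5th and 95th percentiles were -0.77 and 0.33. Below 0, that is, lower in TBI+JM6, lay 64.9% of all probes.

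TBI+E2 was more often the higher group at every signal level, and its large differences lay mostly in the dim probes. When the probes were split by mean signal into 4 bins of 5706, both E2 arrays were above all JM6 arrays on 1142 probes of the dimmest bin and below them on 155, and in the brightest bin on 491 and 135. The median difference was -0.29 in the dimmest bin and -0.11, -0.05 and -0.03 in the brighter ones. Of 566 probes that were measured more than 2-fold higher in TBI+E2, 502 were in the dimmest bin. Under quantile normalization the median of all probes was 0.00 and the unadjusted count was even, with 370 probes higher in TBI+JM6 and 363 higher in TBI+E2. For 14016 probes (61.4%) the 95% interval of the difference lay within 2-fold either way, and for 21067 (92.3%) within 4-fold, so the number of rats left many smaller differences below what could be detected.

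**Figure D1:**
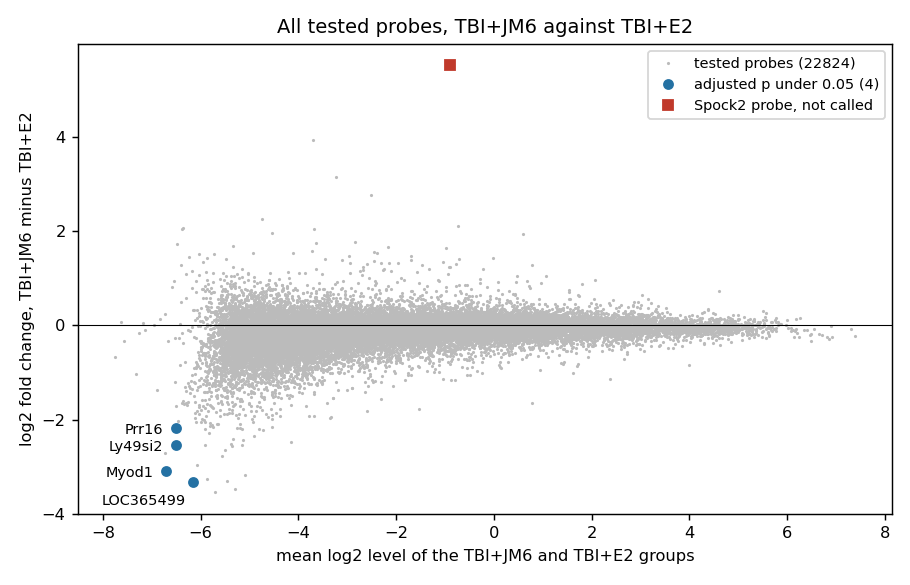
The log2 difference TBI+JM6 minus TBI+E2 (vertical axis) is plotted against the mean log2 level of the 2 groups (horizontal axis) for 22824 tested probes in grey, with the 4 called probes in blue and 1 Spock2 probe, which was not called, in red. The called probes lie below 0 at levels of about -6 to -7, and the cloud of grey points widens and shifts below 0 toward its dim end.

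Myod1, which encodes a muscle-determining transcription factor, was the gene with the smallest p. Its levels were -8.16, -8.50 and -8.10 on the JM6 arrays and -4.64 and -5.66 on the E2 arrays, a log2 difference of -3.10 (SE 0.27, 95% interval -3.69 to -2.52, limma adjusted p = 0.0009). The JM6 signals were not well above background on any of the 3 arrays, so the fold is a bound. The E2 mean was set against the mean over the JM6 arrays of the dimmest signal that counted as above background (or the probe's own signal where higher), which made Myod1 at least 1.95-fold higher in TBI+E2. Such bounds, here and below, allow for no spread between rats and hold only for this array scale and background subtraction. The probe lies at chr1:96912833-96912892 of the rn4 build given in the scanner files, which hold no exon annotation. On the 3 TBI+PMI-006 arrays Myod1 ranged from -8.38 to -7.87, also not above background. It read -8.44 to -8.0 on the 8 Naïve, Sham and TBI arrays, with 0 of 8 above background. The spread of these dim readings entered the SE of 0.27, while the SD of the 2 E2 values was 0.72.

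LOC365499, a predicted gene outside the rule for named genes and given here because it was called, was at -8.04, -8.42 and -7.01 in TBI+JM6 and at -4.55 and -4.44 in TBI+E2 (log2 difference -3.33, SE 0.38, limma adjusted p = 0.00989, at least 3.07-fold higher in TBI+E2; probe at rn4 chr1:521085-521144). Ly49si2, of the Ly49 family of natural killer cell receptors, was at -7.17, -8.05 and -8.13 against -5.04 and -5.44 (log2 difference -2.54, SE 0.31, limma adjusted p = 0.0127, at least 1.83-fold higher in TBI+E2; rn4 chr4:167571597-167571656). Genes of this family are near-identical copies and can share signal. No JM6 array was above background for either gene, and both E2 arrays were.

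Prr16, whose product is known for raising cell size, was at -8.17, -7.05 and -7.57 against -5.30 and -5.52 (log2 difference -2.19, SE 0.29, limma adjusted p = 0.0294, at least 1.63-fold higher in TBI+E2; rn4 chr18:46534081-46534140). The TBI+PMI-006 arrays were between the 2 groups, from -6.47 to -5.70. A second Prr16 probe, which was brighter and above background on all 5 arrays, had a log2 difference of -0.05 (SE 0.43), so the 2 probes disagreed.

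All 4 calls were lost under quantile normalization, where the log2 differences were -2.63 to -1.49, and when the spread was taken from the 5 or 8 drug-treated arrays alone. They turned to the other direction, from 0.03 to 0.38, when the background was corrected by normexp from the mean and local background signals, where the median of all probes was 0.25.

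Just outside the threshold lay Zim1, an imprinted zinc finger gene, at -7.52, -6.13 and -6.29 against -4.49 and -3.76 (log2 difference -2.53, limma adjusted p = 0.0568). Next came Btn1a1, a milk fat globule protein, at -6.21, -6.68 and -6.37 against -3.18 and -4.58 (log2 difference -2.54, limma adjusted p = 0.161). Both were not above background on any JM6 array, and the bounds were at least 3.88-fold and 4.69-fold higher in TBI+E2. Both passed the filter only through the E2 arrays. The 12 genes with the smallest p on this side also held L1td1 (log2 difference -3.25, bound 3.66-fold) and Hoxc11 (-2.0, bound 2.26-fold), neither of them called. The remaining 5 were olfactory receptor genes, Or51q1d, Or5c1, Or2ak6e, Or1j8b and Or1j4, with log2 differences from -3.55 to -1.05 and limma adjusted p from 0.165 to 0.526. L1td1, Hoxc11, Or51q1d (bound 2.04-fold) and Or5c1 (4.55-fold) were not above background on any JM6 array, and Or2ak6e was on 1 of 3. These genes too passed the filter only through the E2 arrays, so their direction was tied to it.

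Olfactory and vomeronasal receptors, the chemical sensors of the nose, were therefore counted as a group after their values were seen. Of 388 such genes tested, 370 were in the dimmest bin of all probes. On all 5 arrays, 226 were above background. None of the 388 was called.

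**Figure D2:**
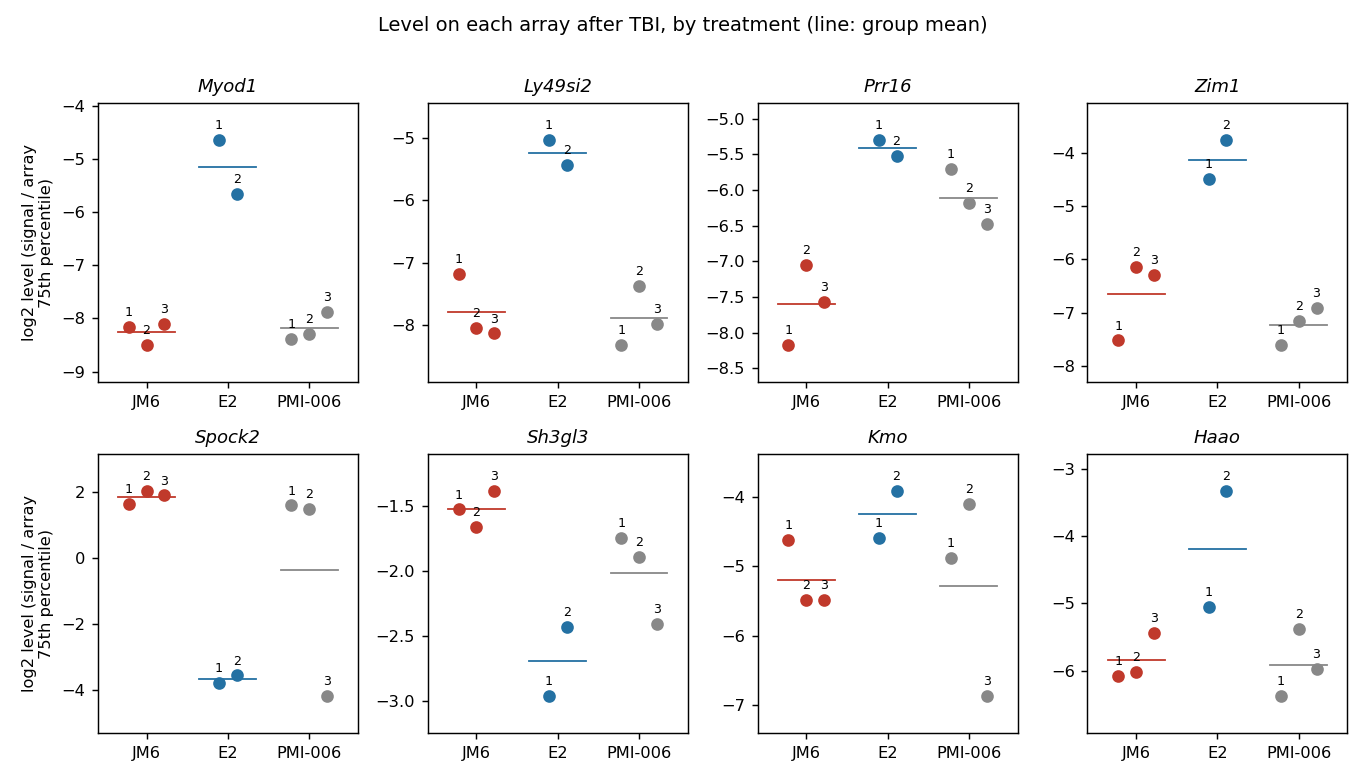
Log2 level on each array (vertical axis, relative to the 75th percentile of the array) for 8 genes in the TBI+JM6, TBI+E2 and TBI+PMI-006 groups, with replicate numbers beside the points and a line at the group mean. Myod1, Ly49si2, Prr16 and Zim1 are higher on both E2 arrays than on all 3 JM6 arrays, Spock2 and Sh3gl3 are higher on all 3 JM6 arrays, and the upper points of Haao and Kmo are the E2 2 array.

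No gene was called higher in TBI+JM6 by limma, where 60 probes had an unadjusted p under 0.05. Sh3gl3, the vesicle endocytosis protein endophilin A3, had the smallest p, at -1.53, -1.67 and -1.39 in TBI+JM6 and at -2.96 and -2.43 in TBI+E2 (log2 difference 1.17, SE 0.24, 95% interval 0.65 to 1.68, limma adjusted p = 0.394). Slc43a1, an amino acid transporter, followed with a log2 difference of 0.94 (SE 0.19, limma adjusted p = 0.394).

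Spock2, an extracellular matrix proteoglycan of the testican family, had the widest measured gap. The probe read 1.64, 2.03 and 1.90 on the JM6 arrays and -3.79 and -3.55 on the E2 arrays, a log2 difference of 5.53 (SE 1.22, limma adjusted p = 0.526). In the TBI+PMI-006 group, which enters the estimate of the spread, the same probe read 1.60, 1.49 and -4.18. With only the 5 arrays in the fit Spock2 was called (limma adjusted p = 0.00341), and also on the shared slide alone (adjusted p = 0.0281), while over all alternatives with limma its adjusted p ran up to 1. A second Spock2 probe read 2.27, 2.66 and 2.43 in TBI+JM6 and 2.51 and 2.57 in TBI+E2, with a log2 difference of -0.09 (SE 0.23). The 2 probes thus disagreed, and the low readings on 3 of the 8 arrays were seen with 1 of them.

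Nqo2, a quinone reductase, read -1.50, -1.50 and -1.45 against -2.75 and -2.88, a log2 difference of 1.33 (SE 0.38, limma adjusted p = 1). The spread was narrow inside these 2 groups and wide elsewhere. The same probe ranged from -2.02 to -0.55 on the TBI+PMI-006 arrays and from -2.49 to -0.92 on the Naïve, Sham and TBI arrays. Plac9, a small secreted protein gene, differed by 1.37 (SE 0.38) on 1 probe and by 1.09 (SE 0.42) on another. Mrps10 of the mitochondrial ribosome (1.38), Lsm8 of the U6 small nuclear RNA complex (1.42), Nit2, an amidase (0.73), and Ctbs, a lysosomal glycosidase (0.84), were also higher on every JM6 array than on both E2 arrays, and none was called. Spata9, Or6c68 and Ybx2 were not above background on either E2 array and had bounds of at least 1.57-fold, 1.61-fold and 1.14-fold higher in TBI+JM6. These genes passed the filter only through the JM6 arrays.

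Of 13 kynurenine pathway genes, 9 were tested, and Kynu, Tdo2, Acmsd and Afmid were too dim. No member was called. With 1 of 9 above 0, where 64.9% of all probes were below 0, the median difference was -0.41, against -0.08 for all probes. The middle member, Ido2, was dim, and the dimmest bin of all probes had a median of -0.29. Under quantile normalization the list median was -0.11, beside -0.0045 for all probes. Under normexp it was 0.19, where the median of all probes was 0.25. The E2 arrays were all above the JM6 arrays for 3 members (Haao, Kmo and Aadat), where 14.1% of all probes had this order.

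Kmo, the enzyme at which JM6 is aimed, read -4.62, -5.49 and -5.49 on the JM6 arrays and -4.59 and -3.91 on the E2 arrays. JM6 1 and E2 1 were almost level, and the log2 difference of -0.95 had a 95% interval from -2.82 to 0.92. Haao, which acts just below Kmo on the quinolinic acid branch, read -6.08, -6.01 and -5.44 against -5.05 and -3.33, and was above background on 2 of the 3 JM6 arrays. Its log2 difference was -1.66 (95% interval -2.62 to -0.69), with an unadjusted p = 0.00269 and an adjusted p of 1 by limma. Qprt, which removes quinolinic acid, differed by -0.19 (95% interval -1.0 to 0.62).

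Among the aminotransferases that make kynurenic acid, Aadat read -1.66, -1.83 and -1.94 against -1.44 and -1.2, with a log2 difference of -0.49 (95% interval -1.0 to 0.02). Kyat1 differed by -0.13 (-0.52 to 0.26), Kyat3 by -0.16 (-0.57 to 0.26) and Got2 by 0.24 (-0.30 to 0.78). For these 3 the intervals exclude a 2-fold difference. Ido1 (-0.47, 95% interval -1.89 to 0.94) and Ido2 (-0.41, -1.62 to 0.80), the entry enzymes, were dim and left a wide range.

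Of 34 genes of estrogen receptors, estrogen synthesis and estrogen response, 24 were tested, and Esr1, Pgr, Esrrb, Esrrg and Greb1 were among the 10 that were not. No member was called, 10 of 24 were above 0, and the median was -0.07, beside -0.08 for all probes. Esr2 read -4.76, -4.53 and -3.73 against -4.79 and -4.10 (log2 difference 0.11, 95% interval -1.17 to 1.38). Gper1 differed by -0.24 (-0.82 to 0.33) and Esrra, an orphan receptor of the same family, by -0.08 (-0.47 to 0.31).

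Nrip1, a corepressor that binds the estrogen receptor and is itself an estrogen target, was the 1 member of 24 with an unadjusted p under 0.05 by limma, where 2.81% of all probes had one. It read -3.61, -3.62 and -3.10 in TBI+JM6 and -2.92 and -2.82 in TBI+E2 (log2 difference -0.57, 95% interval -1.04 to -0.10, unadjusted p = 0.0212 and adjusted p = 1 by limma). For other estrogen-responsive genes the intervals included 0: Ccnd1, a cyclin, differed by 0.18 (-0.51 to 0.87), Ctsd, a lysosomal protease, by 0.10 (-0.38 to 0.59), and Bcl2 by -0.42 (-1.83 to 0.99).

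Genes of the CREB, glutamate, Akt and cell death pathways, which the study follows, were also compared. Creb1, a transcription factor of activity and plasticity, differed by 0.08 (95% interval -0.78 to 0.94). Bdnf, a neurotrophin, read -3.08, -3.73 and -0.18 against -2.95 and -3.54, so that JM6 3 alone stood above the E2 arrays, and the difference of 0.91 had an interval from -0.88 to 2.70. The AMPA receptor subunits differed by 0.21 (Gria1, -0.32 to 0.74), 0.05 (Gria2, -0.39 to 0.49), -0.07 (Gria3, -0.49 to 0.35) and -0.38 (Gria4, -1.09 to 0.32), and a 2-fold difference lay outside the interval of the first 3.

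Akt1, a survival kinase, differed by -0.05 (95% interval -0.39 to 0.30) and Akt2 by -0.20 (-0.87 to 0.47). Of 12 calpains tested, which are calcium-activated proteases, 0 were called by limma, at 0 with an unadjusted p under 0.05, and 4 were above 0, with a median of -0.04. Capn2 was at 0.20 and Capn8, above background on 1 of 3 JM6 arrays, at -1.04. Of 26 caspase and Bcl2 family genes, 0 were called, 0 had an unadjusted p under 0.05, and the median was -0.08. Casp1, the protease that activates interleukin-1β, differed by -0.42 (SE 0.32).

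**Figure D3:**
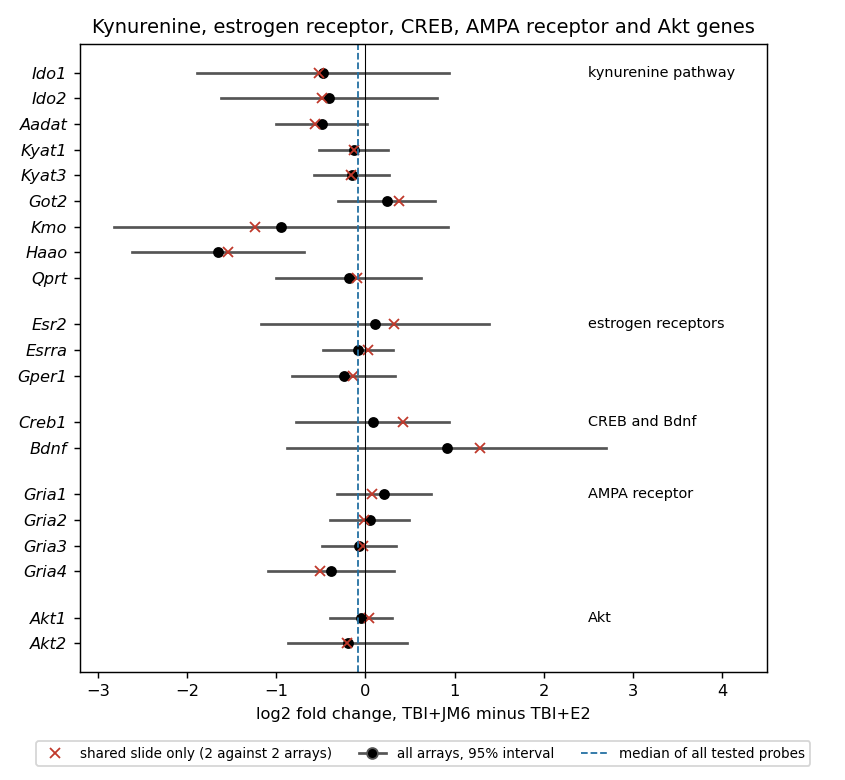
Log2 difference TBI+JM6 minus TBI+E2 (horizontal axis) with its 95% interval from all arrays (black), and the difference on the shared slide alone, 2 arrays against 2 (red crosses), for genes of the kynurenine pathway, estrogen receptors, Creb1 and Bdnf, AMPA receptor and Akt genes. The dashed line is the median of all tested probes, -0.08, and Haao is the 1 gene whose interval lies wholly on one side of 0.

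Immediate early genes, which neurons switch on within minutes of activity or injury, had the highest median of the 48 gene lists. Of 26 tested, 25 were above 0, and the median difference was 0.85 (0.89 under quantile normalization and 1.43 on the shared slide), yet 0 were called and 0 had an unadjusted p under 0.05 by limma. Among all probes, 0.0175% were called and 2.81% had an unadjusted p under 0.05. JM6 3 was the highest of the 5 arrays for 26 of 26 genes, where it was the highest for 9924 of 22564 probes (44%) as a whole.

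Fos, a subunit of the AP-1 transcription factor, read -2.14, -1.78 and 3.03 on the JM6 arrays and -1.52 and -1.54 on the E2 arrays. Arc, a regulator of synaptic AMPA receptors, read -0.35, 0.05 and 4.57 against 0.01 and 0.27, and Npas4, an activity-dependent transcription factor, -5.55, -6.91 and 1.62 against -6.63 and -5.13. JM6 1 and JM6 2 were within or below the range of the E2 arrays for these genes, and JM6 3 was far above it. For Fos the difference was 1.23 (SE 1.24), for Arc 1.28 (SE 1.29) and for Npas4 2.27 (SE 1.94).

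Egr1, a zinc finger transcription factor, read -1.66, -1.38 and 2.54 against -1.11 and -0.92, Nr4a1, an orphan nuclear receptor, -1.21, -1.11 and 3.44 against -1.03 and -0.63, and Dusp5, a phosphatase that switches off nuclear ERK, -2.20, -1.95 and 1.95 against -2.04 and -1.82. Ptgs2, the inducible cyclooxygenase, was the 1 member of 26 whose groups did not overlap, at -2.55, -2.82 and 1.40 against -2.97 and -3.02. Of all probes, 2.93% had this order. Relative to the mean of the E2 arrays, the median of the 26 genes was -0.38 on JM6 1, -0.09 on JM6 2 and 2.81 on JM6 3. Without JM6 3 the median difference was -0.25, and 7 of 26 genes (26.9%) were higher on both E2 arrays than on JM6 1 and 2, where 38.1% of all probes were.

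The same genes were high on 1 array of the third drug group. On TBI+PMI-006 1 the median of the list was 1.77 above the E2 mean, and on the other two arrays of that group -0.19 and -0.47. JM6 3 read more than 2 log2 units above all other 4 arrays on 74 probes, of 67 genes or unnamed probes, while each of the other 4 arrays did so on 5 to 14. Of those 67, 17 were immediate early genes, 4 were acute injury genes, and 43 also stood more than 1 log2 unit above the E2 mean on TBI+PMI-006 1. Among them were Trh (-2.21, -1.58 and 2.70 against -1.39 and -2.03) and Npy (1.19, 1.02 and 3.47 against 0.92 and 1.45), both neuropeptides. Neuronal markers on JM6 3 had a median 0.28 above the E2 mean (22 genes, from -0.57 to 1.37), and choroid plexus and ependyma markers -0.17 (21 genes). On TBI+PMI-006 1 the choroid plexus and ependyma markers were 3.49 above the E2 mean. The part of cell make-up in the values of these arrays was not tested.

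Among the 74 probes were 5, for Sh3tc2, Ino80c and 3 unnamed transcripts, read 5.34 to 5.47 on JM6 3 and -6.26 to -0.27 on the other 4 arrays. JM6 3 was also the 1 array of the 5 with saturated probes, 5 in number. Over all 19102 probes above background on every array of the session, the SD of the log2 differences between 2 arrays was 0.325 for the E2 pair, 0.410 for JM6 1 and 2, 0.374 to 0.397 between those and the E2 arrays, and 0.50 to 0.53 for JM6 3 with each of the other 4 arrays of the comparison. Rats given the same drug were therefore no closer to each other than to rats given the other drug, except for the E2 pair.

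**Figure D4:**
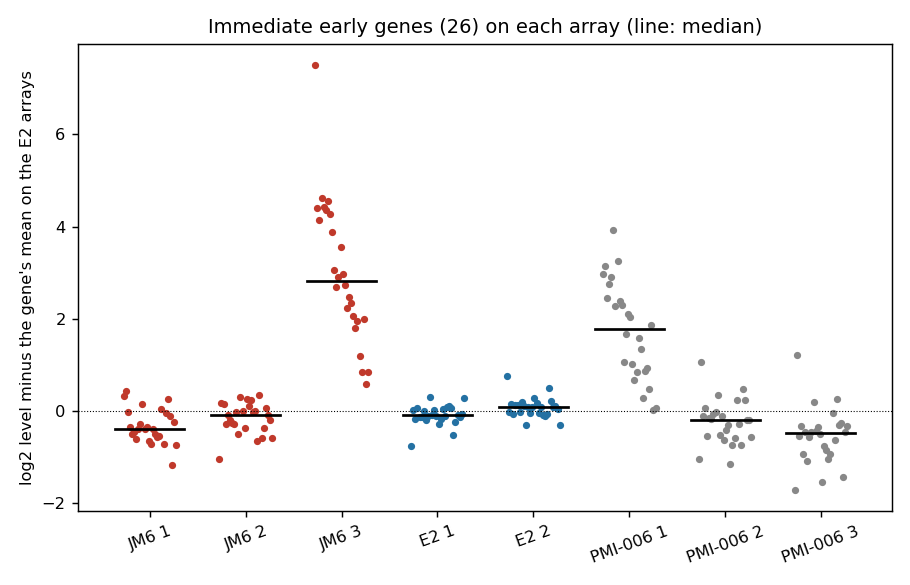
Log2 level of each of 26 immediate early genes minus the gene's mean on the 2 E2 arrays (vertical axis), on the 8 arrays of the scan session, with a line at the median of each array. The medians are 2.81 on JM6 3 and 1.77 on PMI-006 1 and lie between -0.47 and 0.09 on the other 6 arrays.

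Since these genes moved together on 1 array, the promoters of members that hold a known inducible element were read from RefSeq (GRCr8). In the 250 bases before the start site, the cAMP response element TGACGTCA, the site of Creb1, was present in 4 of 21 immediate early genes with an entry (Btg2, Dusp1, Ier2 and Vgf) and in 1.59% of 33469 promoters. The CArG box of serum response factor was present in 2 of the 21 (Dusp5 and Egr1) and in 1.5% of all. Both elements read the same on either strand, and the 2 motifs do not overlap each other. The stretches from 140 to 41 bases before the start site follow for 3 of them, the element in capitals, because they show both kinds. Dusp5, at chr1:262543634-262543733 on the plus strand, has a pair of CArG boxes side by side, 82 and 72 bases before the start. The Ier2 stretch lies at chr19:40399233-40399332 on the plus strand and the Vgf stretch at chr12:25277061-25277160 on the minus strand, with the element 66 and 90 bases before the start. The estrogen response element GGTCANNNTGACC was found in 0 of 21 promoters of the genes named above for the smallest p and in 0.0239% of all. At that rarity 0 of 21 was likely for any set of genes, so no conclusion is drawn from it. A match is a run of letters and not a site shown to be bound.
Dusp5: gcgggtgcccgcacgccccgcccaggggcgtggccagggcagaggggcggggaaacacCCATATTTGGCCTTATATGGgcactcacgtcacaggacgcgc
Ier2: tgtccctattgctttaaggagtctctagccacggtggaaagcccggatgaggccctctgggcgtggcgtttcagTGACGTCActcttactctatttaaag
Vgf: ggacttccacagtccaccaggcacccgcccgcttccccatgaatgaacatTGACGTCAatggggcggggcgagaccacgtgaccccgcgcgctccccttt

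Ier2, a nuclear immediate early protein, read -0.93, -0.44 and 2.19 on the JM6 arrays and -0.71 and -0.38 on the E2 arrays. Vgf, a secreted neuropeptide precursor, read 1.39, 2.47 and 3.91 against 2.17 and 2.05, so that JM6 1 was the lowest array and JM6 3 the highest.

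Acute injury genes, a list of stress and repair transcripts, had the second highest median, 0.27 over 30 tested, with 25 above 0 and 0 called (0 at an unadjusted p under 0.05, limma). JM6 3 was the highest array for 23 of 30. Atf3, a stress transcription factor, read -2.89, -1.94 and 1.78 against -2.27 and -2.01, and Hmox1, heme oxygenase, -0.87, 0.13 and 2.24 against -0.48 and 0.16. Hspb1, a small heat shock protein, read 4.10, 5.11 and 5.73 against 4.11 and 4.38. Without JM6 3 the median of the list was -0.02. Lcn2, a siderophore-binding protein of reactive astrocytes, went the other way in order, at 4.20, 3.49 and 3.03 in TBI+JM6 and 4.30 and 4.54 in TBI+E2 (log2 difference -0.85, 95% interval -2.71 to 1.01).

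Glial and proliferation lists had medians below 0, that is, toward TBI+E2, without any called member. The median of all probes was -0.08, and 64.9% of all probes were below 0 too. Of 23 oligodendrocyte and myelin genes, 0 were above 0, the median was -0.26, and 7 were higher on both E2 arrays than on all JM6 arrays, where 14.1% of all probes were. Mog, a myelin surface protein, read 1.82, 1.15 and 1.2 against 1.89 and 1.82 (log2 difference -0.47, 95% interval -1.01 to 0.07). Mbp, the main myelin basic protein, read 6.23, 5.90 and 6.23 against 6.21 and 6.55 (-0.26, -0.84 to 0.32). JM6 1 was level with the E2 arrays for many of these genes, with a list median -0.02 from the E2 mean, and JM6 2 and 3 were at -0.37 and -0.47. Without JM6 3 the list median was -0.19, beside -0.16 for all probes, and 30.4% of the members were higher on both E2 arrays, against 38.1% of all probes.

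Of 22 astrocyte genes, 2 were above 0, the median was -0.19, and 9 were higher on both E2 arrays, where 14.1% of all probes were. Without JM6 3 the median was -0.14, beside -0.16 for all probes, and 45.5% of the members were higher on both E2 arrays, against 38.1% of all probes. Among them Aldoc, an aldolase of astrocytes, read 4.24, 4.63 and 4.41 against 4.81 and 4.86 (log2 difference -0.41, 95% interval -0.91 to 0.09), and Gja1, the gap junction protein connexin 43, 1.99, 1.96 and 1.59 against 2.20 and 2.17 (-0.34, -0.82 to 0.13). Gfap, the filament that marks reactive astrocytes, did not share this order, at 4.43, 4.39 and 4.96 against 4.40 and 4.60 (0.09, -0.69 to 0.88). No astrocyte or oligodendrocyte gene was called, and 0 of either list had an unadjusted p under 0.05 by limma. In bulk tissue, fewer cells of a type and less RNA per cell cannot be told apart.

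Of 31 proliferation genes, 4 were above 0, the median was -0.26, and 10 were higher on both E2 arrays, where 14.1% of all probes were. Without JM6 3 the share was 38.7%, against 38.1% of all probes. Mcm7, of the replicative helicase, was the 1 member with an unadjusted p under 0.05 by limma, where 2.81% of all probes had one. It read 0.47, 0.65 and 0.35 against 0.94 and 0.97 (log2 difference -0.47, 95% interval -0.88 to -0.05, limma unadjusted p = 0.0325, adjusted p = 1). Other members of that helicase differed less, with Mcm4 at 0.01 and Mcm2 at -0.13. The median of the list was -0.06 without E2 1, beside -0.15 for all probes, and -0.41 without E2 2, beside -0.01. Under normexp it was 0.30, beside 0.25 for all probes. The list therefore lay below all probes neither without E2 1 nor under normexp, and its sign changed with the background correction.

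Interferon-stimulated genes had a median of -0.28 over 29 tested, with 3 above 0, where 64.9% of all probes were below 0. However, E2 2 alone was high for several of these genes. Ifit2, an interferon-induced antiviral protein, read -4.16, -3.60 and -3.84 against -3.70 and -2.19 (log2 difference -0.92, limma unadjusted p = 0.0359, adjusted p = 1), and Rsad2, viperin, -2.89, -3.64 and -3.18 against -3.29 and -1.24. Without E2 2 the list median was 0.15 and without E2 1 it was -0.60.

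Inflammatory, stress and neuronal lists had medians between -0.17 and 0.03, beside -0.08 for all probes. The median was -0.06 for 33 chemokine and cytokine genes, -0.08 for 29 microglia and macrophage genes, -0.17 for 22 complement genes, 0.02 for 29 heat shock protein genes and 0.03 for 25 NRF2 antioxidant genes, with 0 called in each by limma and 0 at an unadjusted p under 0.05. Among 22 neuron markers the median was 0.03. Relative to all probes it was 0.11, and that of the astrocyte genes was -0.11. Of the 22 markers, 13 were above 0 and 9 below, down to -0.68. The JM6 arrays were all above both E2 arrays for 5 (Nefl, Nrgn, Slc17a7, Stmn2 and Syt1), where 2.93% of all probes had this order. Relative to the E2 mean, the median of the markers was -0.15 on JM6 1, 0.02 on JM6 2 and 0.28 on JM6 3. Nefl, the light neurofilament, read 1.95, 1.89 and 3.14 against 1.79 and 1.75 (log2 difference 0.56, 95% interval -0.18 to 1.30), again with JM6 3 on top.

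Among neurotransmitter genes, Cartpt, a neuropeptide precursor, read -1.81, -2.54 and -2.32 in TBI+JM6 and -4.41 and -3.0 in TBI+E2 (log2 difference 1.48, 95% interval 0.15 to 2.81, limma unadjusted p = 0.0316, adjusted p = 1). Grm6, a metabotropic glutamate receptor, read -4.48, -4.09 and -4.62 against -3.72 and -3.50 (-0.79, -1.34 to -0.23, limma unadjusted p = 0.0089, adjusted p = 1). Cplx1, complexin 1 of the vesicle release machinery, was bright and tight, at 3.21, 3.14 and 3.23 against 3.65 and 3.57 (-0.42, -0.81 to -0.02, limma unadjusted p = 0.0412, adjusted p = 1). Each of these 3 was the 1 member of its list (of 29, 23 and 34 tested) with an unadjusted p under 0.05 by limma, where 2.81% of all probes had one. The lists these 3 came from had medians of 0.05, -0.04 and -0.02, and no member of any of the 48 lists was called.

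**Figure D5:**
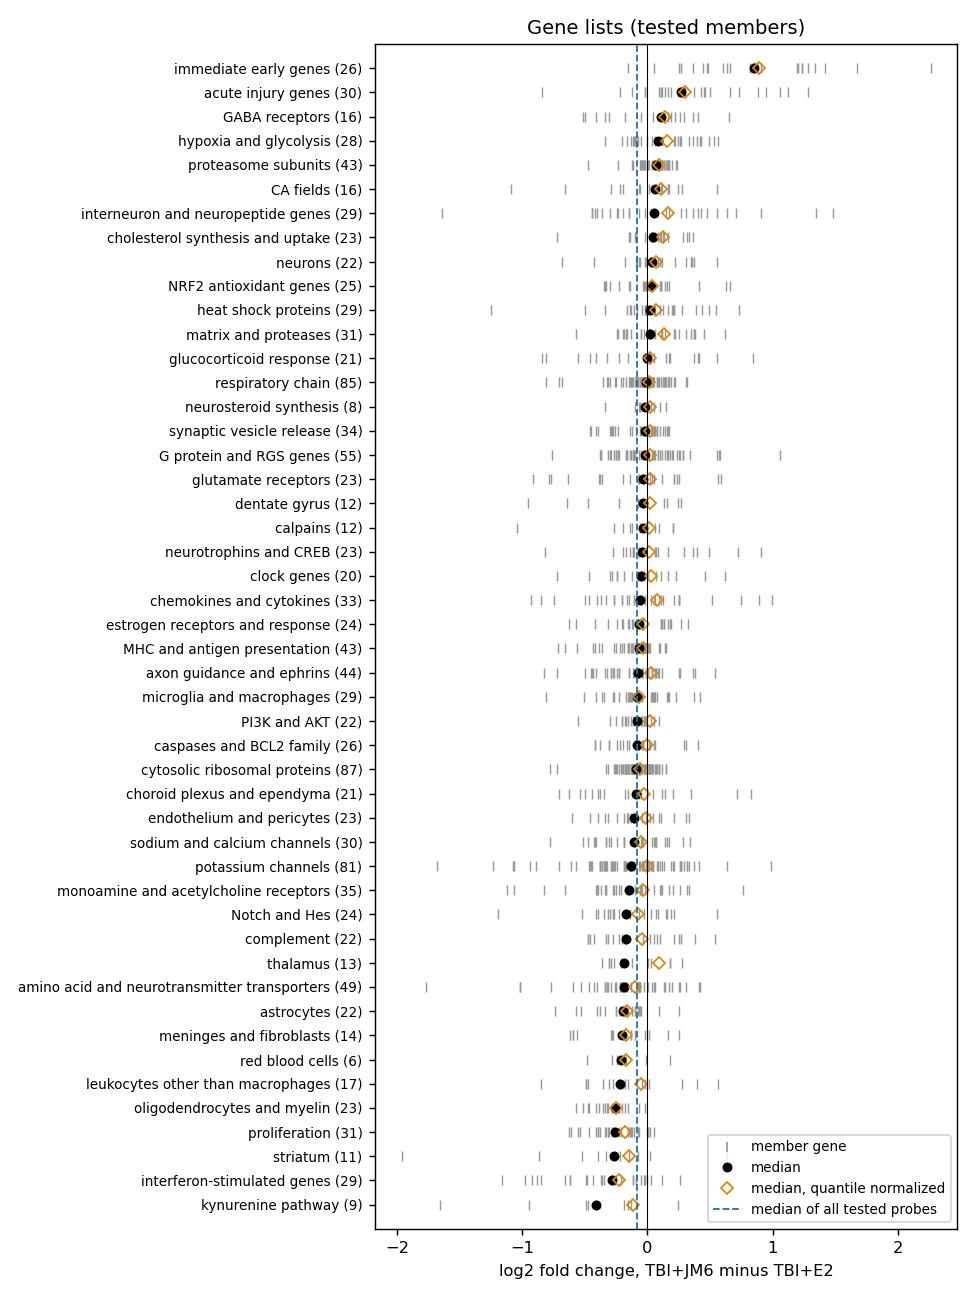
Log2 difference TBI+JM6 minus TBI+E2 (horizontal axis) of the tested members of 48 gene lists (ticks, with the number of members in parentheses), the median of each list (black points) and the median under quantile normalization (orange diamonds). The immediate early gene list lies highest at 0.85, most lists lie within 0.3 of 0, and the kynurenine list, lowest at -0.41, moves to -0.11 under quantile normalization.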

How the data were processed

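Of 16 rat hippocampus arrays (single-colour, 4 arrays per slide), 3 TBI+JM6 and 2 TBI+E2 arrays were compared. The authors deposited scanner files in which the intensity of each spot was already background subtracted by Agilent Feature Extraction and not normalized between arrays, and a matrix of values, deposited by the authors as a ratio to an array percentile, which was used as an alternative. The labels leave unstated which of 2 amplification kits each rat had, so this was not modelled. P-values of the main fit rest on the spread between rats within a group, pooled over all 16 arrays and both scan sessions. That spread can differ from the spread within TBI+JM6 and TBI+E2.

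Spots (42877 non-control) were averaged to 30367 probes, the probe values of each array were scaled to its own 75th percentile (over probes above background) and put on the log2 scale. Probes above background throughout at least 1 group, 22827 in all, were tested in 1 limma model over all arrays (10 residual degrees of freedom) with Benjamini-Hochberg adjustment, and 3 of them gave no fold change because a group had no usable value. A gene with several probes was represented by 1 probe, and positions are those of rn4. Symbols came from RefSeq by accession (17679 probes) or by name (3206), 1970 probes kept the name in the file, and 7512 had none.

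Named genes were the 12 per direction with the largest fold among called genes, filled up by the smallest p where fewer were called, with arrays that did not overlap and a higher group above background, and the pathway genes set out in the text, of which 1 is not reported here. The members, lists and rules were chosen with earlier results of these data known. Alternatives were other array scales, background corrections, filters, the deposited matrix, other sets of arrays, slide and replicate blocks, array weights, a probe GC trend, gene means, the methods' t-test, Welch's test and each rat left out. List medians under the alternatives and counts without JM6 3 were added after seeing the data. The fit was tested on simulated data. R 4.3.3, limma 3.58.1, jsonlite 2.0.0, the data.table package (1.17.8), Python 3.11.15 and matplotlib 3.10.9 were used.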

Additional observations from a re-analysis of the deposited data

How the results depend on the processing

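The number of called probes, 4 (0 higher in TBI+JM6, 4 in TBI+E2), moved with most choices. It was 2 (all higher in TBI+E2) with the 75th percentile of all probes, 0 with quantile normalization, normexp, a filter on all 5 arrays, the 8 arrays of the session with or without the slide as a fixed block, the methods' t-test after adjustment and Welch's test, and 1 (Spock2, higher in TBI+JM6, with 0 higher in TBI+E2) with the 5 arrays only or the shared slide only. Unadjusted counts in the settings with 0 were 112 to 846. It rose to 25 (2 higher in TBI+JM6, 23 in TBI+E2) with no filter, 15 (3 and 12) with the deposited matrix, which kept 1 of the 4, 67 (5 and 62) with array weights, and 618 (83 and 535) with the methods' t-test at an unadjusted p under 0.05 and a fold over 1.2, which also called 19 list members where limma called 0. It stayed at 4 with the slide as a random block, the probe GC trend removed, gene means (Zim1 in place of Prr16), a filter on the compared groups and a fold limit of 1.5. With each rat left out, the count ran from 1 to 20, of which TBI+JM6 was higher on 0 to 2 and TBI+E2 on 1 to 18: 1 without E2 2, 3 without E2 1, 3 without JM6 2, 7 without JM6 1 and 20 without JM6 3. Myod1 was called in all 5. Where E2 was left with 1 array, it was assumed to vary like the other groups.

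Under normexp the 4 called genes reversed, to log2 differences of 0.26 (Myod1), 0.38 (Ly49si2), 0.34 (Prr16) and 0.03 (LOC365499), with the median of all probes at 0.25. That median was -0.16 without JM6 3. The cause was not tested. The values of the single named genes were counted once per gene and alternative, so a gene counts many times. Of these values, 3631 kept the call or, for uncalled genes, moved by no more than the spread between rats. That limit lets small differences change sign. A further 131 uncalled values moved by more, 43 became called, and 43 values of the 4 called genes lost the call.

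Replicate numbers gave no sign of pairing the rats. Deviations of same-numbered JM6 and E2 arrays from their group means correlated at -0.013 and -0.029, and other pairs at -0.012 to 0.029. The deviations of the 2 E2 arrays mirror each other, so these pairs are not independent and the check is weak. With the replicate number as a block, 3 probes were called (Hoxc11, LOC365499 and Myod1).

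With 2 E2 rats the 95% interval of a probe reached a median of 0.63 log2 units to either side. The outlier check for groups of 4 or more arrays did not apply to groups of 3 and 2. JM6 1 was the 1 array of the comparison on its slide, so that slide and that rat cannot be told apart.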
